A study of Mus musculus with 83 samples.

Results

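Regulator of G protein signalling (RGS) genes were described in neurons of the mouse frontal cortex. The 9 genes Rgs2, Rgs4, Rgs7, Rgs8, Rgs10, Rgs12, Rgs14, Rgs16 and Rgs17 were taken by symbol from the 48795 genes of the deposited count table, which holds 21 numbered Rgs genes. The series comprised 83 libraries from male C57BL/6 mice that were young (2 months) or old (22 months), with no further treatment or allele given. Each library was a pool of 125 cells picked by laser capture from sections 14 µm thick. Cells were stained for Slc17a7, Pvalb, Sst or Vip and are called PYC (pyramidal), PV, SST and VIP neurons. Every type had 12 libraries from old mice, and young mice gave 9 libraries each of PYC, SST and VIP neurons and 8 of PV neurons. Such a pool can also carry the processes of neighbouring cells that lie in the same section.

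RGS proteins bind active G alpha subunits and speed the hydrolysis of their GTP, which shortens the signal of a G protein-coupled receptor. The R4 subfamily (Rgs2, Rgs4, Rgs8 and Rgs16) consists of small proteins that are little more than the RGS domain. Rgs7 belongs to the R7 subfamily, which works in a complex with the atypical G beta subunit Gnb5. Rgs10, Rgs12 and Rgs14 form the R12 subfamily, and Rgs17 is an RZ protein that acts on Gnaz and other G alpha i/o subunits. In cortex these genes are known to set how long receptors for glutamate, acetylcholine, dopamine, opioids and GABA act on channels and enzymes.

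Values are counts scaled to the library total (CPM, counts per 1000000 counts), and comparisons between genes use CPM per kilobase of exonic sequence. A difference was called where edgeR's quasi-likelihood F-test gave a Benjamini-Hochberg adjusted p under 0.05 over all genes tested. Fold changes are log2 and carry a standard error (SE). Of the 9 genes, 7 were called in at least 1 comparison of a type with the mean of the others. In single comparisons of this kind 8.01% to 17.0% of all genes were called. The share of all genes called in at least 1 of these comparisons was not computed, so the 7 cannot be set against those single shares. The 7 include Rgs16, which entered these tests through its VIP counts. No gene of the 9 was called between old and young mice.

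Library totals ran from 1.46 M to 27.2 M counts (M, mega) with a median of 6.99 M. In 6 libraries mitochondrial genes gave at most 2.51% of the counts, against at least 8.31% in the other 77. These 6 were young VIP libraries 1 and 3, young PYC library 2, young SST library 6, old PYC library 10 and old VIP library 11. The VIP markers Vip, Htr3a, Prox1 and Crh summed to 459 to 2828 CPM in VIP pools and to at most 76.7 CPM in any other. The SST markers summed to 2310 to 3982 CPM in SST pools, and to 466.2 CPM at most in 19 VIP pools. They reached 1690 CPM in old VIP library 9 and 1815 CPM in old VIP library 11, and without these 2 pools the 9 genes had as many type calls (14 of 36 against the others and 21 of 54 between pairs), a setting chosen after seeing the data. The PV markers summed to 650 to 1423 CPM in PV pools and to at most 173 CPM elsewhere. GABAergic markers summed to 76.2 to 296 CPM in PYC pools and to at least 872 CPM in the others. The sum of the 6 pyramidal markers did not separate PYC from VIP pools, with 2845 to 5588 CPM in PYC and 2109 to 4289 CPM in VIP. Camk2a gave most of that sum, with group means of 2023 and 2212 CPM in PYC and 2203 and 2375 CPM in VIP. Each of the other pyramidal markers had higher group means in PYC than in VIP pools. Astrocyte markers summed to 836 CPM or more in every pool. Slc1a2 gave most of that sum, with group means of 1310.5 to 2271.1 CPM. Group means of Aqp4, Gfap, Aldh1l1, Gja1 and Sox9 were 2.04 to 44.2 CPM, and those of Slc1a3 and Aldoc lay between. The marker lists of oligodendrocytes (153 CPM or more), their precursors (3.8 or more), microglia (21.6 or more) and vessels (3.0 or more) were above 0 in every pool.

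Start sites are shown first for the 6 genes whose highest level, in 1 neuron type, was called above the mean of the others, since 4 of them share the VIP pattern. Sequences are from RefSeq on GRCm38.p6, 250 bases before to 50 after the most upstream start in the table, 5′ to 3′ on the gene's strand. The table held 8 of the 9 genes; the entry for Rgs14 is missing. Capitals mark, on either strand, the letters TGACG of a cyclic AMP response element, the GC box GGGCGG or the TATA box TATAAA. The 4 genes with the highest level in VIP neurons were Rgs8 (chr1:153652787-153653086, plus strand), Rgs10 (chr7:128418123-128418422, minus strand), Rgs12 (chr5:34949198-34949497, plus strand) and Rgs16 (chr1:153740103-153740402, plus strand).
Rgs8: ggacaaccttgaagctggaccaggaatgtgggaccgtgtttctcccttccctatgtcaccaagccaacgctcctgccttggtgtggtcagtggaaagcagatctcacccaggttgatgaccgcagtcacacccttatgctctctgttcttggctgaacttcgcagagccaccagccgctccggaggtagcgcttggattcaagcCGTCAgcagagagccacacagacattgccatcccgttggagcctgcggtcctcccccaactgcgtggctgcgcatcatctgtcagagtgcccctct
Rgs10: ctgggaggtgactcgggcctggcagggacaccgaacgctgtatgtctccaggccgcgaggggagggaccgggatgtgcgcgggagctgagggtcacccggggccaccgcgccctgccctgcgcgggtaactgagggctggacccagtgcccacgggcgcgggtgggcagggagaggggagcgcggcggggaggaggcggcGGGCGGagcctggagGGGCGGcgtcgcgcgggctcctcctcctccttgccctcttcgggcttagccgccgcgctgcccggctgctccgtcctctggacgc
Rgs12: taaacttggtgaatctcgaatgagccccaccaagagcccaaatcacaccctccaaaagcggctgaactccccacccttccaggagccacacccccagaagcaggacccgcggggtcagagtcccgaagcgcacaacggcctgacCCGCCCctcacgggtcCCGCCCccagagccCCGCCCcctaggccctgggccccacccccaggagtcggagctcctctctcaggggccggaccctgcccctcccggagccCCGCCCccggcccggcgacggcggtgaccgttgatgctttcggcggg
Rgs16: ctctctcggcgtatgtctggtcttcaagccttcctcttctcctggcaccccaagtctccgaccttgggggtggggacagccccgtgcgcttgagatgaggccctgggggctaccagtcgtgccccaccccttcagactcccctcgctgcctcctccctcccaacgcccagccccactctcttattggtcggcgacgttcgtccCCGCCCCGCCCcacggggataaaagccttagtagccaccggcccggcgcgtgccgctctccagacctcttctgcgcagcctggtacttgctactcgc
Rgs4 (chr1:169747593-169747892, minus strand), highest in PYC neurons, and Rgs17 (chr10:5922351-5922650, minus strand), highest in SST neurons, are set beside them.
Rgs4: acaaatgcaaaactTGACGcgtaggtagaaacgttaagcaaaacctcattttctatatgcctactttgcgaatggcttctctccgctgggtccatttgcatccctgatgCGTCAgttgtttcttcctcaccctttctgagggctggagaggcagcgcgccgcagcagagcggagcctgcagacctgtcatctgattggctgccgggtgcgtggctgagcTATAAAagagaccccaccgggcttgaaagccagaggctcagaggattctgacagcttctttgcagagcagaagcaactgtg
Rgs17: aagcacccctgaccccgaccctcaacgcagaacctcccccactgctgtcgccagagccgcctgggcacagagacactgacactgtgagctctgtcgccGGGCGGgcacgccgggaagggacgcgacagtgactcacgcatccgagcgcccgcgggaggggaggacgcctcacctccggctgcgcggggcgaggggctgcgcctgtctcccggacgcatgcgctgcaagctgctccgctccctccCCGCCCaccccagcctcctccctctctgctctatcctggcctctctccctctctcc

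The letters searched on both strands were the cyclic AMP response element TGACGTCA, with its overlapping part TGACG counted apart, the GC box GGGCGG, the TATA box TATAAA and the E-box CACGTG. TGACGTCA was found in 1.79% of 32851 promoters of the same length and in none of the 8 promoters. TGACG stood in 20.8% of all promoters, and had 2 matches each in Rgs2 and Rgs4 and 1 in Rgs8. GGGCGG stood in 35.7% of all promoters, with 4 matches each in Rgs2 and Rgs12 and 2 each in Rgs10, Rgs16 and Rgs17. Rgs4 held the TATAAA match of the set, a motif in 13.6% of all promoters, and Rgs7 held the CACGTG match, a motif in 7.15%. The 4 promoters of the VIP-high genes therefore had none of the 5 motifs in common. Their G and C content was 76.0% for Rgs10, 70.3% for Rgs12, 66.0% for Rgs16 and 58.3% for Rgs8. It was 73.3% for Rgs7, 71.0% for Rgs17, 70.0% for Rgs2 and 53.0% for Rgs4, against a median of 52.7% over all promoters. A high content was thus not particular to the VIP-high genes. A match is a run of letters and was not tested as a site.

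The genes lie on 5 chromosomes of GRCm38 in the GENCODE M21 annotation, and 5 of the 9 are on chromosome 1. Rgs8 (chr1:153653025-153700323, plus strand) and Rgs16 (chr1:153740349-153745468, plus strand) follow each other with 40.0 kb between them. Rgs2 (chr1:143999338-144004161), Rgs4 (chr1:169741477-169747642) and Rgs7 (chr1:175059087-175492500) are on the minus strand of the same chromosome. Rgs12 spans chr5:34949445-35039644, Rgs10 chr7:128373621-128418758, Rgs17 chr10:5825663-5922400 and Rgs14 chr13:55369732-55384687. The sources used here do not say whether counting used the strand, and reads of an antisense partner cannot be told apart. The antisense genes Gm29529 (at Rgs8), Gm28513 (at Rgs16) and Gm43791 (at Rgs12) had means of 0.324 CPM or less in each type, and 5730408A14Rik at Rgs7 had means of 4.23 to 5.99 CPM.

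Per kilobase, Rgs4 gave the largest part of the numbered Rgs transcripts in each type, and the rest of the set changed from type to type. In PYC neurons Rgs4 made up 55.7% ± 13.9 (SD, n = 21) of the summed CPM per kilobase of the 21 Rgs genes, and in PV neurons 49.1% ± 12.5 (SD, n = 20). Its share was 24.2% ± 9.13 (SD, n = 21) in SST and 23.2% ± 7.52 (SD, n = 21) in VIP neurons. Rgs17 stood second in SST neurons at 19.2% ± 5.24. In VIP neurons Rgs10 gave 15.9% ± 6.66, Rgs8 12.0% and Rgs12 8.18% of the sum. The 9 genes together held 81.3% of the sum in PYC, 84.5% in PV, 69.0% in SST and 79.5% in VIP neurons. The sum itself was 172 ± 49.8 CPM per kilobase in PYC, 95.7 ± 25.5 in PV, 148 ± 27.1 in SST and 189 ± 44.7 in VIP neurons (SD). These are shares of a pool's RNA, which can include that of neighbouring cells, and the part of such cells was not tested.

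**Figure D1:**
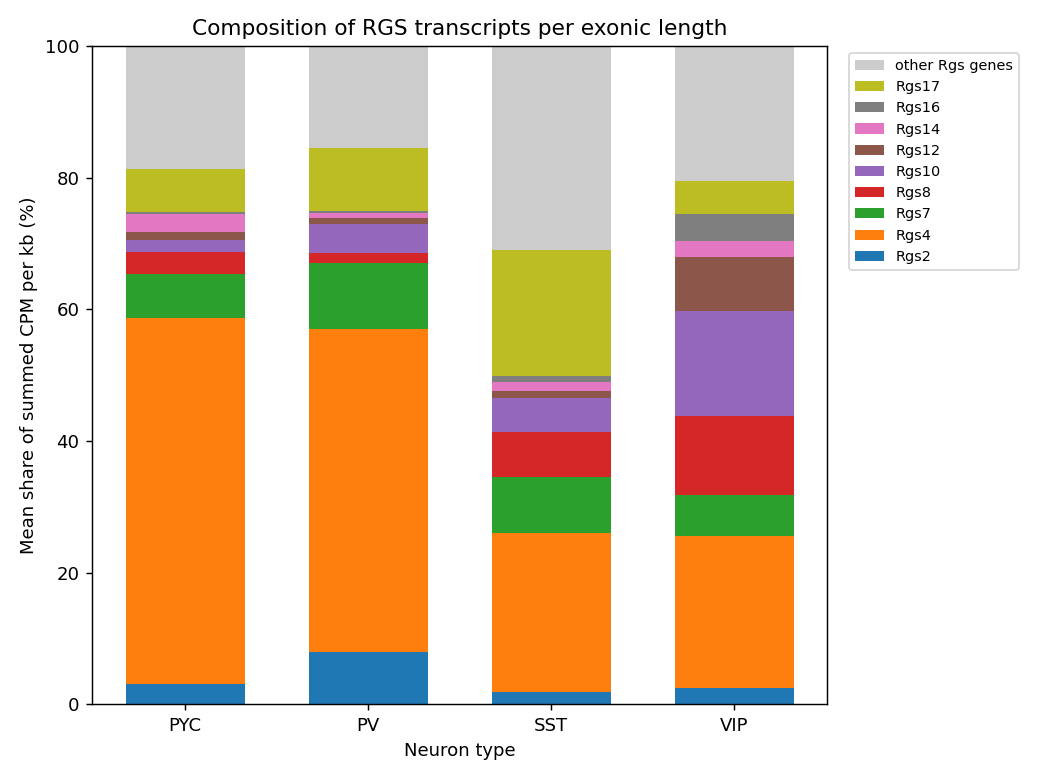
Stacked bars give, for each neuron type, the mean percent of the summed CPM per kilobase of 21 Rgs genes that came from each of the 9 genes, with the other Rgs genes in grey. Rgs4 goes from 55.7% in PYC to 23.2% in VIP neurons, where Rgs10, Rgs8 and Rgs12 take a larger part.

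Against the mean of the other types, 5 of the 9 genes were called in PV neurons, all lower, where 17.0% of all 19208 genes tested were called. In VIP neurons 5 were called, 4 higher and 1 lower, against 12.0% of all genes. In SST neurons 3 were called, 2 higher and 1 lower, against 8.01% of all genes. In PYC neurons 1 was called, higher, against 13.3% of all genes. These 14 calls came from 36 tests, of which 19 had an unadjusted p under 0.05. Between pairs of types the calls were 5 for PV against VIP (16.8% of all genes), 5 for PYC against VIP (9.46%) and 3 for PYC against PV (16.8%). There were 3 for PYC against SST (10.8%), 3 for SST against VIP (6.63%) and 2 for PV against SST (10.9%). Of the 5 genes called lower in PV neurons against the others, Rgs8 was also called lower in PV than in each other type. Rgs14 was called lower there than in PYC and VIP neurons, Rgs12 and Rgs16 than in VIP alone, and Rgs17 than in SST alone. A gene high in 1 type can thus be called lower in PV neurons against the mean. Rgs16 passed the filter on low counts within a type only in VIP libraries and so entered these tests through the type where it is high. Its differences are a description, and without it 12 of 32 tests against the others and 19 of 48 between pairs were called, with 3 genes higher in VIP neurons and 4 lower in PV neurons. The median log2 fold change of the 8 genes without Rgs16 was -1.04 in PV neurons, against -0.05 over all genes tested, and 0.67 in VIP neurons, against 0.07 over all genes. In PYC neurons it was -0.07 and in SST neurons -0.22. The 83 pools came from 9 young and 12 old mice, so pools share mice in a way the labels do not record, and these tests treat all pools as independent. A separate fit that kept genes from the median abundance upward, and so 8 of the 9 without Rgs16, had 12 calls of 32 against the other types and 20 of 48 between pairs.

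**Figure D2:**
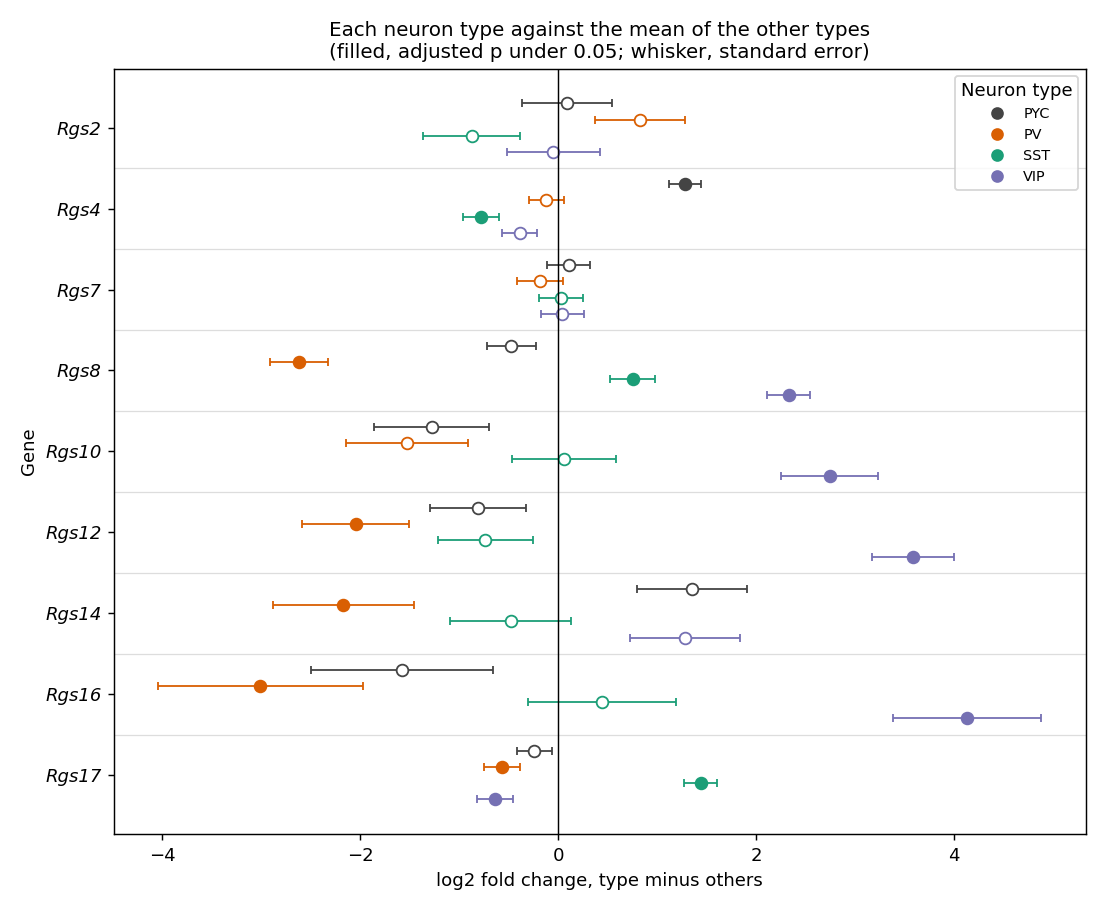
Points give the log2 fold change of each gene, a type minus the mean of the remaining types, with the SE as whiskers and filled points for adjusted p under 0.05. VIP points lie farthest to the right for Rgs8, Rgs10, Rgs12 and Rgs16, PYC for Rgs4 and SST for Rgs17, and 5 PV points are filled on the left.

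Rgs4 acts on G alpha i/o and G alpha q and is known as an abundant regulator in cortical pyramidal cells. Young PYC libraries had 177 CPM at the lowest, 374 at the median and 495 at the highest, and old PYC libraries had 78.0, 269 and 730. In PV neurons the lowest, median and highest were 75.9, 146 and 285 CPM in young and 38.7, 138 and 211 CPM in old mice. In SST neurons they were 60.6, 99.3 and 258 CPM in young and 41.0, 90.5 and 226 CPM in old mice. The PYC pools lay above the others but overlapped them, with 13 of 21 above the highest value of any other type. In VIP neurons the 3 values were 105, 133 and 225 CPM in young and 49.7, 102 and 254 CPM in old mice. Rgs4 was 2.43-fold higher in PYC neurons than in the mean of the others (log2 fold change 1.28, SE 0.161, edgeR adjusted p = 8.04e-10). It was lower in SST neurons (log2 fold change -0.78, SE 0.18, edgeR adjusted p = 0.00144). The order was PYC, PV, VIP and SST, and only the step from PYC to PV was called (log2 fold change 1.05, SE 0.217, edgeR adjusted p = 0.000126). The step from PV to VIP was 0.20 (SE 0.213) and that from VIP to SST 0.30 (SE 0.21). The lower level in SST neurons was not called in old libraries alone (edgeR adjusted p = 0.164). The pyramidal marker sum averaged 3445 CPM in PYC, 2965 CPM in VIP, 1874 CPM in SST and 1498 CPM in PV pools, and most of it was Camk2a. Mean Rgs4 over the ages was 317 CPM in PYC, 139 CPM in VIP, 113 CPM in SST and 150 CPM in PV pools. The part of other cells in the result was not tested.

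Rgs8, which acts on G alpha i/o and is known to speed the opening and closing of GIRK potassium channels, had a different level in each type. In VIP neurons young libraries had 180, 203 and 354 CPM (lowest, median, highest) and old libraries 97.5, 218 and 300 CPM. In SST neurons the values were 18.3, 110 and 134 CPM in young and 14.8, 96.0 and 152 CPM in old mice. In PYC neurons they were 11.3, 39.3 and 81.6 CPM in young and 17.1, 43.1 and 119 CPM in old mice. Of 21 VIP pools, 18 lay above the highest pool of the other types. PV neurons were the lowest, with 0, 14.7 and 35.7 CPM in young and 0, 16.3 and 38.8 CPM in old mice. All 3 steps in the order VIP, SST, PYC, PV were called. From VIP to SST the log2 fold change was 1.18 (SE 0.293, edgeR adjusted p = 0.00530), from SST to PYC 0.92 (SE 0.292, edgeR adjusted p = 0.0268) and from PYC to PV 1.61 (SE 0.306, edgeR adjusted p = 3.36e-05). Against the other types, Rgs8 was 5.03-fold higher in VIP neurons (log2 fold change 2.33, SE 0.218, edgeR adjusted p = 3.07e-14). The same comparison gave -2.61 in PV neurons (SE 0.294, edgeR adjusted p = 1.82e-11) and 0.75 in SST neurons (SE 0.228, edgeR adjusted p = 0.0236). The step from SST to PYC was not called without the 6 libraries of few mitochondrial counts (edgeR adjusted p = 0.0504) or with the F number of the sample titles, which the labels do not explain, as a factor (0.0782). In single ages the folds stayed similar while the adjusted p missed the threshold. PYC minus SST was -1.04 in young (edgeR adjusted p = 0.265) and -0.77 in old libraries (0.249), and SST minus VIP was -1.21 in young (0.203) and -1.19 in old libraries (0.0520). SST against the others was 0.79 in young (0.375) and 0.70 in old libraries (0.201).

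Rgs16, the neighbour of Rgs8, acts on G alpha i/o and G alpha q and was mostly found in VIP neurons. Young VIP libraries had 2.61, 14.7 and 40.1 CPM at the lowest, median and highest, and old VIP libraries 0, 14.1 and 49.1 CPM. It was detected in 20 of 21 VIP pools, 9 of 21 SST pools, 7 of 21 PYC pools and 4 of 20 PV pools. Outside VIP neurons the median was 0 CPM in every group, and the highest pool was an old SST pool with 24.6 CPM. Of the VIP pools, 6 lay above that value. Rgs16 was higher in VIP neurons than in the others (log2 fold change 4.13, SE 0.75, edgeR adjusted p = 1.22e-05) and lower in PV neurons (log2 fold change -3.00, SE 1.03, edgeR adjusted p = 0.0295), values given as a description of a gene that was kept through its VIP counts. PV pools held 71 counts in all young and 8 in all old libraries. The PV call was lost with the F number as a factor (log2 fold change -2.34, edgeR adjusted p = 0.177) and in young libraries alone (-1.13, edgeR adjusted p = 0.835). The step from VIP to SST was 2.76 (SE 1.06, edgeR adjusted p = 0.107), though it was called with limma-voom (adjusted p = 1.57e-05) and with the F number as a factor (edgeR adjusted p = 0.0217). The steps from SST to PYC (1.52, SE 1.01) and PYC to PV (1.07, SE 0.995) were not called. PYC against VIP was called (log2 fold change -4.28, SE 1.14, edgeR adjusted p = 0.00617), as was PV against VIP (-5.35, SE 1.27, edgeR adjusted p = 0.000831). Neither held in young libraries alone (edgeR adjusted p = 0.267 and 0.282), nor did PYC against VIP in old libraries alone (edgeR adjusted p = 0.0876).

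Rgs2, which prefers G alpha q and is induced by activity in neurons, was not called between any types. Old PV libraries had 0, 30.2 and 78.2 CPM at the lowest, median and highest, and young PV libraries 0.542, 7.15 and 39.4 CPM. Old PYC libraries had 0, 15.0 and 51.8 CPM and young PYC libraries 1.40, 13.7 and 29.2 CPM. In SST neurons the values were 0, 12.8 and 40.3 CPM in young and 0, 3.87 and 17.6 CPM in old mice. All groups overlapped, and single groups spanned from 0 to over 50 CPM. In VIP neurons Rgs2 had 0.299, 24.2 and 48.8 CPM in young and 0.184, 7.07 and 30.3 CPM in old mice. Means over the ages ran from 24.0 CPM in PV through 16.0 in PYC and 15.3 in VIP to 10.9 in SST neurons. The steps were 0.55 (SE 0.575), 0.10 (SE 0.565) and 0.62 (SE 0.567), all within about 1 SE of 0, so differences of this size were not detectable here. Between the ends of the order, PV minus SST was 1.28 (SE 0.582) and was not called (edgeR unadjusted p = 0.0298, adjusted p = 0.164).

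Rgs7 is the R7 member that acts on G alpha i/o with Gnb5 and an anchor such as Rgs7bp, and it had the most even level of the 9 genes. Means over the ages were 70.6 CPM in SST, 69.5 in VIP, 68.5 in PYC and 56.8 CPM in PV neurons. No step of that order was called, and the fitted steps were -0.01 (SE 0.27), -0.05 (SE 0.27) and 0.22 (SE 0.275). The lowest PYC young, SST young and VIP young libraries for Rgs7 (19.8, 16.7 and 4.49 CPM) were all among the 6 libraries with few mitochondrial counts. In PYC neurons the lowest, median and highest were 19.8, 80.1 and 124 CPM in young and 19.2, 52.8 and 118 CPM in old mice. In PV neurons they were 25.1, 58.7 and 127 CPM in young and 0.401, 60.4 and 97.9 CPM in old mice. In VIP neurons they were 4.49, 81.7 and 161 CPM in young and 19.5, 73.7 and 97.0 CPM in old mice. The ranges of all types overlapped nearly in full. Above the median of the other types lay 2 of 20 PV pools, against 10 PYC, 13 SST and 14 VIP pools of 21 each. PV against the others was not called (log2 fold change -0.18, SE 0.229, edgeR adjusted p = 0.724).

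Rgs12, a large R12 protein with a PDZ domain, a phosphotyrosine-binding domain and a GoLoco motif beside the RGS domain, had its level in VIP neurons far above the others. Young VIP libraries had 74.9, 131 and 274 CPM at the lowest, median and highest, and old VIP libraries 52.8, 117 and 229 CPM. Young PYC libraries had 0, 9.07 and 18.0 CPM and old PYC libraries 0, 10.8 and 90.2 CPM. In SST neurons the values were 1.85, 5.99 and 39.1 CPM in young and 0, 9.16 and 40.3 CPM in old mice. Of the 21 VIP pools, 15 lay above the highest pool of any other type, an old PYC pool, and all 21 lay above 27.1 CPM, the 90th percentile of the others. PV libraries had 0, 1.83 and 16.1 CPM in young and 0, 7.56 and 17.9 CPM in old mice. Rgs12 was 12.0-fold higher in VIP neurons than in the others (log2 fold change 3.58, SE 0.418, edgeR adjusted p = 2.40e-10). The step from VIP to PYC was 3.29 (SE 0.612, edgeR adjusted p = 4.96e-05), and PYC (14.0 CPM) and SST (13.6 CPM) differed by -0.06 (SE 0.557). In PV neurons Rgs12 was lower than in the mean of the others (log2 fold change -2.04, SE 0.542, edgeR adjusted p = 0.00380), which was not called in young libraries alone (edgeR adjusted p = 0.132). Of the pairs with PV, only PV minus VIP was called (-4.22, SE 0.669, edgeR adjusted p = 9.32e-07). PV minus SST was -0.98 (SE 0.579, edgeR adjusted p = 0.346) and PYC minus PV was 0.93 (SE 0.579, edgeR adjusted p = 0.329). SST against VIP was called over both ages (log2 fold change -3.24, SE 0.61, edgeR adjusted p = 0.000136) and not in young libraries alone (edgeR adjusted p = 0.0594).

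Rgs10 is a small R12 protein acting on G alpha i/o and is also known as a gene of microglia, the immune cells of the brain. Young VIP libraries had 28.7, 58.6 and 108 CPM at the lowest, median and highest, and old VIP libraries 9.07, 38.3 and 122 CPM. In SST neurons the values were 0, 7.03 and 46.9 CPM in young and 0, 15.4 and 36.7 CPM in old mice. PYC libraries had 0, 4.07 and 25.2 CPM in young and 0, 0.878 and 28.9 CPM in old mice. All 21 VIP pools lay above the median of the other types (4.25 CPM), and 11 above their highest pool. PV libraries had 0, 1.29 and 12.9 CPM in young and 0, 8.57 and 37.6 CPM in old mice. Rgs10 was higher in VIP neurons than in the others (log2 fold change 2.75, SE 0.491, edgeR adjusted p = 1.38e-05). The step from VIP to SST was 2.02 (SE 0.681, edgeR adjusted p = 0.0548) and was not called, though it was with RLE size factors (edgeR adjusted p = 0.0489), with DESeq2 (adjusted p = 0.0195), with limma-voom (adjusted p = 0.000657) and in the fit kept from the median abundance upward (edgeR adjusted p = 0.0476). The steps from SST to PYC (1.0, SE 0.663) and PYC to PV (0.19, SE 0.67) were not called either. The 12 microglia markers were present in all types, with a mean sum of 105 CPM in VIP (36.3 to 223), 106 in SST (46.9 to 179), 91.1 in PYC (35.9 to 195) and 67.5 in PV pools (21.6 to 202). Mean Rgs10 was 54.0 CPM in VIP and 13.5 CPM in SST pools, and the part of microglia in the result was not tested.

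Rgs14, which has Ras-binding domains and a GoLoco motif and is known for limiting plasticity in hippocampal area CA2, was lowest in PV neurons. PYC libraries had 0, 10.9 and 51.4 CPM at the lowest, median and highest in young and 2.93, 20.8 and 53.3 CPM in old mice. VIP libraries had 3.03, 14.5 and 52.7 CPM in young and 0, 13.6 and 49.8 CPM in old mice. PV libraries had 0, 1.45 and 7.47 CPM in young and 0, 0.0904 and 30.1 CPM in old mice. Of 20 PV pools, 8 held no count of Rgs14, and 2 lay above the median of the others. SST libraries had 0, 2.68 and 20.5 CPM in young and 0, 3.93 and 41.2 CPM in old mice. Rgs14 was lower in PV neurons (log2 fold change -2.17, SE 0.71, edgeR adjusted p = 0.0212). PYC exceeded PV by 2.64 (SE 0.797, edgeR adjusted p = 0.011) and VIP exceeded PV by 2.59 (SE 0.795, edgeR adjusted p = 0.013). No step between neighbours in the order VIP, PYC, SST, PV was called. The PV call was lost with the F number as a factor (edgeR adjusted p = 0.0524), and these 3 calls were lost in young and in old libraries alone, where the edgeR adjusted p ran from 0.113 to 0.273.

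Rgs17 was the 1 gene of the 9 whose highest level lay in SST neurons and was called above the mean of the others. Old SST libraries had 151, 271 and 351 CPM at the lowest, median and highest, and young SST libraries 84.3, 180 and 307 CPM. PYC libraries had 40.5, 98.4 and 182 CPM in young and 40.7, 77.7 and 173 CPM in old mice. VIP libraries had 13.2, 54.5 and 147 CPM in young and 14.1, 62.7 and 208 CPM in old mice. All 21 SST pools lay above the median of the other types (69.6 CPM), and 13 above their highest pool. PV libraries had 32.2, 69.2 and 125 CPM in young and 40.9, 69.3 and 166 CPM in old mice. Rgs17 was higher in SST neurons (log2 fold change 1.44, SE 0.163, edgeR adjusted p = 1.46e-11), and the step from SST to PYC was 1.26 (SE 0.216, edgeR adjusted p = 3.74e-06). That step was not called in young libraries alone (edgeR adjusted p = 0.120), while the comparison of SST with the mean of the others was. Rgs17 was lower in VIP neurons (log2 fold change -0.64, SE 0.182, edgeR adjusted p = 0.00918) and in PV neurons (-0.56, SE 0.185, edgeR adjusted p = 0.0223). The VIP call was lost without the 6 libraries of few mitochondrial counts (edgeR adjusted p = 0.0551), in young (0.139) and in old libraries alone (0.240). The PV call was lost with the F number as a factor (edgeR adjusted p = 0.0557) and in young libraries alone (0.407). PYC, VIP and PV neurons, at 91.4, 78.3 and 75.7 CPM, were not called as different, with steps of 0.30 (SE 0.213) and -0.06 (SE 0.217).

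**Figure D3:**
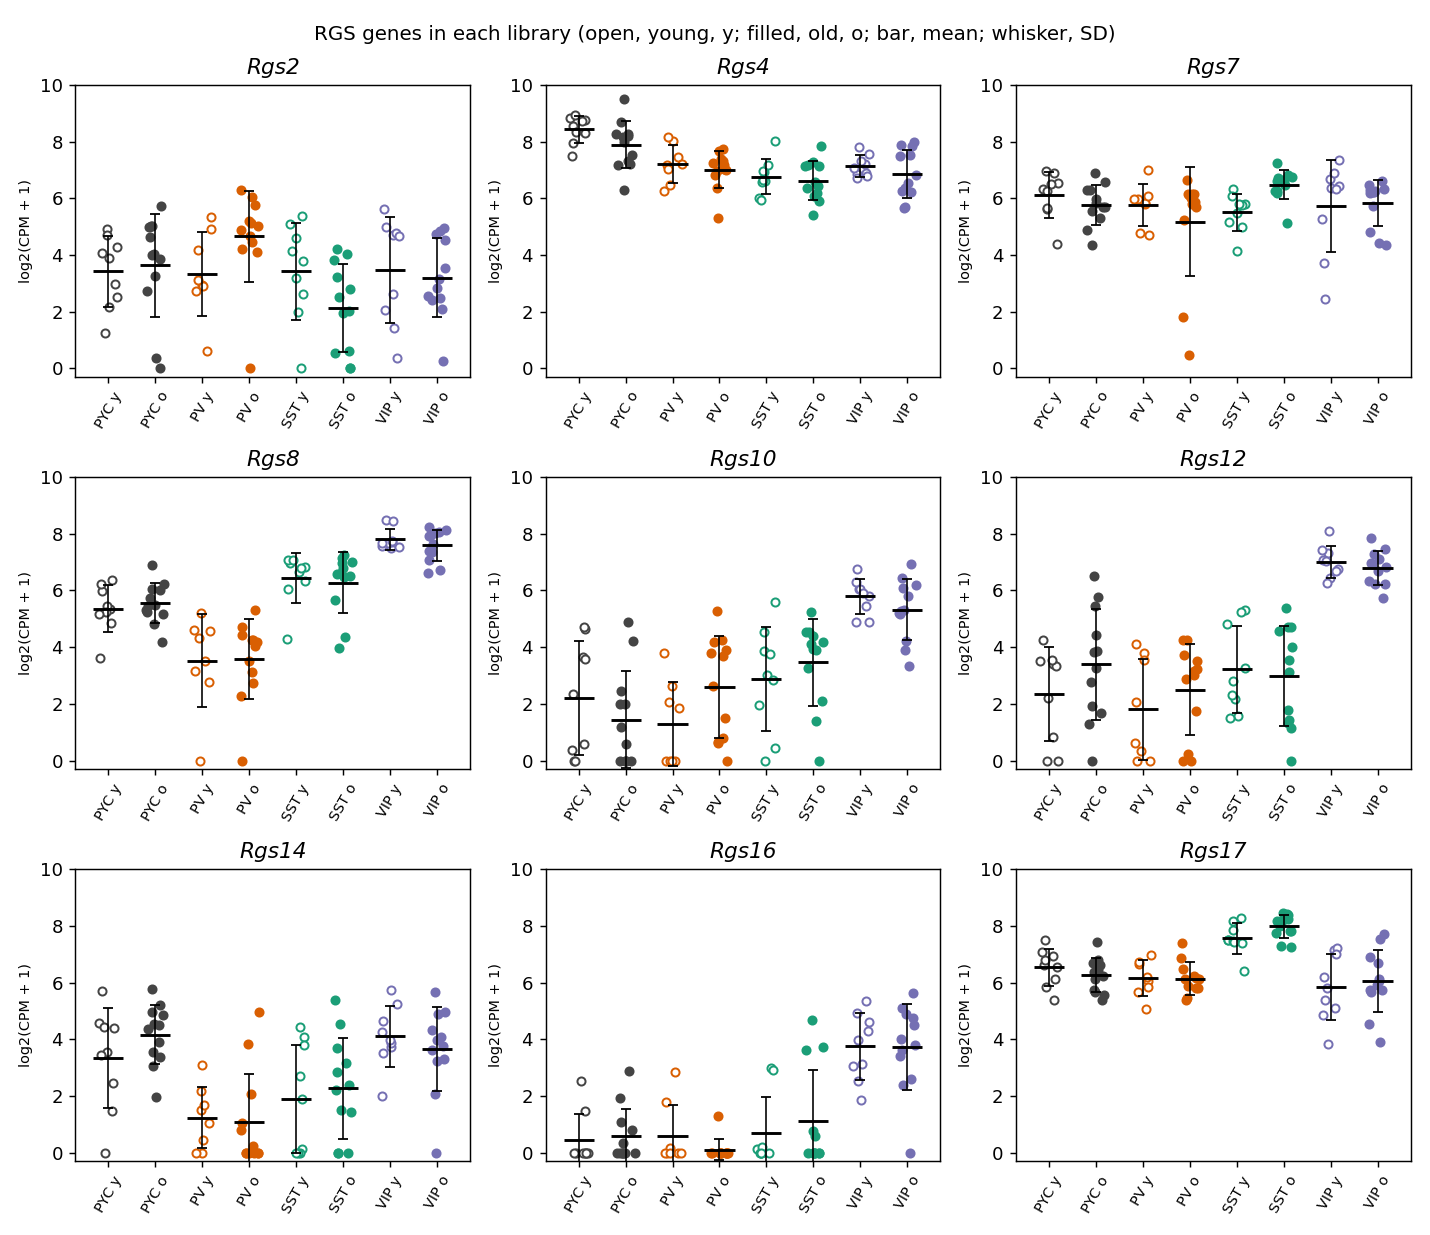
Each point is 1 library on a log2(CPM + 1) axis, in 8 groups of neuron type and age (open, young; filled, old), with the mean as a bar and the SD as whiskers. VIP libraries mostly stand above the rest for Rgs8, Rgs10, Rgs12 and Rgs16, SST libraries for Rgs17 and PYC libraries for Rgs4, while Rgs2 and Rgs7 overlap across all groups.

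Within neuron types no gene of the 9 was called between old and young mice in any of 32 tests, and 0.00% of all genes tested were called in each of PYC (12508 genes), PV (0.00% of 12564), SST (0.00% of 12805) and VIP neurons (0.00% of 12337). Rgs14 did not pass the filter on low counts in PV libraries, and Rgs16 passed it only in VIP libraries. DESeq2 and limma-voom also gave 0 calls among the 9 genes. An unadjusted p under 0.05 was found in 2 tests, both in SST neurons. The 32 log2 fold changes ran from -1.42 (Rgs2 in SST neurons) to 1.70 (Rgs10 in PV neurons), with 13 positive and 19 negative. Averaged over the types, none of the 9 was called or had an unadjusted p under 0.05, with fold changes from -0.33 (Rgs16) to 0.42 (Rgs12), while 1.97% of all 19208 genes were called. That share depends on the test, with 15 genes called under the filter on CPM and 0 with limma-voom or, of 9604 genes, from the median abundance upward. The age difference of none of the 9 was called as differing between types, against 3.13% of all genes, and none had an unadjusted p under 0.05. For that test DESeq2 called 1 gene, the filter on CPM and limma-voom 8 each, and the fit from the median abundance upward 1 of 9604. The smallest p was that of Rgs7 (p = 0.0707, edgeR adjusted p = 0.457).

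Rgs7 in SST neurons had the smallest unadjusted p for age. Young SST libraries had 16.7, 53.0 and 79.4 CPM at the lowest, median and highest, and old SST libraries 34.1, 98.2 and 151 CPM. Of 12 old libraries, 11 lay above the young median and 8 above the highest young library, and all 9 young libraries lay below the old median. The log2 fold change was 0.94 (SE 0.285, unadjusted p = 0.00202, edgeR adjusted p = 0.9999) and did not pass the test. It was 0.82 without young SST library 6, the SST library with few mitochondrial counts. It ran from 0.82 to 1.13 over 32 fits in all, with other settings or a library left out, and passed only with no filter on low counts (edgeR adjusted p = 0.0204), a setting in which 5734 genes were called in SST neurons. Library totals differed too, with medians of 9.75 M in young and 6.13 M in old SST pools, and with the total as a covariate the log2 fold change was 0.92. In the other types Rgs7 gave -0.38 (PYC), -0.19 (PV) and -0.21 (VIP).

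Rgs17 in SST neurons was the other test under 0.05. Of 12 old libraries, 10 lay above the young median of 180 CPM and 3 above the highest young library. The log2 fold change was 0.40 (SE 0.184, unadjusted p = 0.0331, edgeR adjusted p = 0.9999) and did not pass the test. The groups overlapped over most of their range.

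**Figure D4:**
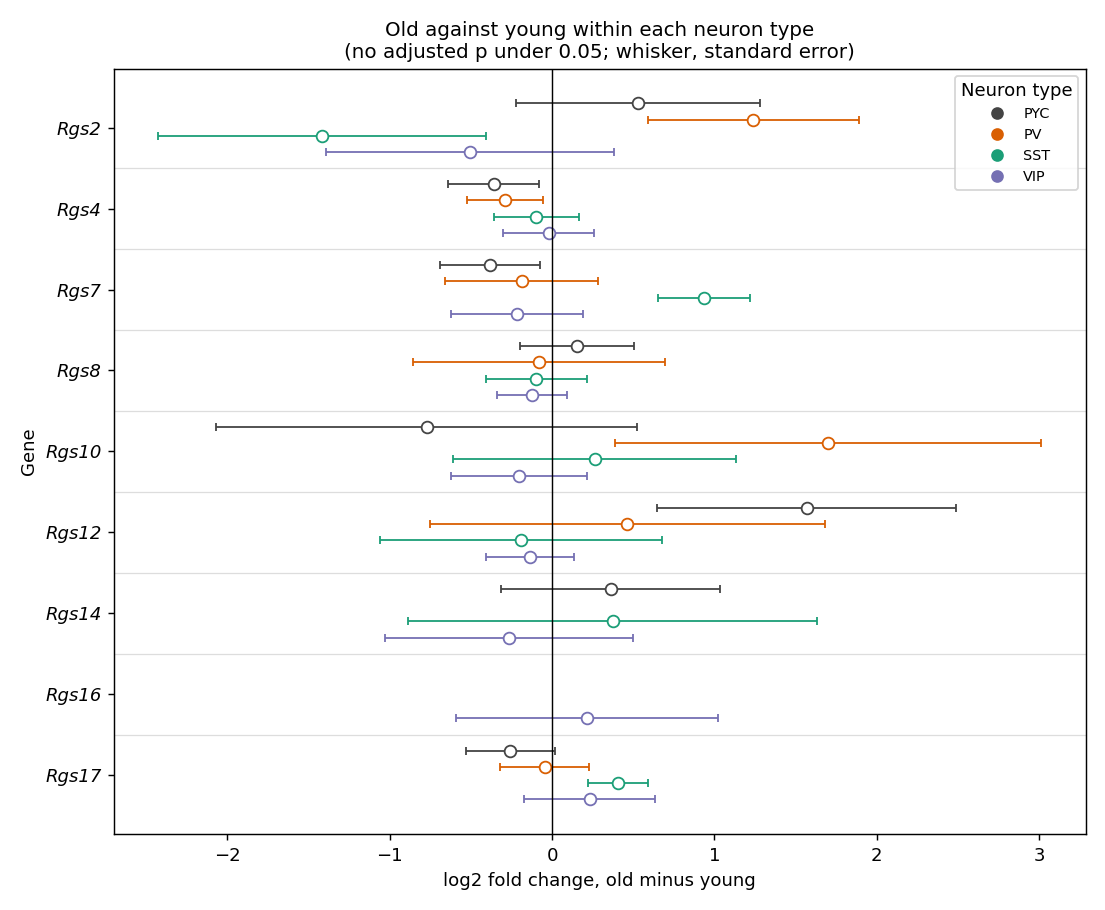
Points give the log2 fold change of old against young mice for each gene in each neuron type, with the SE as whiskers. No point is filled because no adjusted p was under 0.05, and the values farthest from 0, such as 1.70 for Rgs10 in PV neurons, have wide whiskers.

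The remaining RGS genes showed type differences in SST and PV neurons. Of the 12 other numbered Rgs genes, 8 were tested. The shares of all genes called were 13.3% in PYC, 17.0% in PV, 8.01% in SST and 12.0% in VIP neurons. In SST neurons 2 were higher, Rgs9 (log2 fold change 2.83, SE 0.463) and Rgs6 (1.29, SE 0.26), which belong with Rgs7 to the R7 subfamily. In PV neurons 3 were lower, Rgs9 (-2.22, SE 0.61), Rgs6 (-2.01, SE 0.328) and Rgs11 (-1.76, SE 0.369), and none was called in PYC or VIP neurons. The list's median log2 fold change was -0.83 in PV and 0.23 in SST neurons, against -0.05 and 0.05 over all genes. Rgs9 averaged 75.8 CPM in SST pools (17.2 to 166) and 5.43 CPM in PV pools (0 to 28.3). Of 4 tested binding partners of RGS proteins, Gnb5 was higher in PYC neurons (0.58, SE 0.202) and the anchor Rgs7bp higher in PV neurons (0.50, SE 0.103), and the other types had no call.

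The G alpha subunits on which RGS proteins act were also unequal between types, in comparisons that called 8.01% (SST) to 17.0% (PV) of all genes. Of 5 i/o/z subunits, Gnai2 was higher in VIP (log2 fold change 0.66, SE 0.149) and SST neurons (0.61, SE 0.149) and lower in PV neurons (-1.06, SE 0.17). Gnao1, the main G alpha of brain, was lower in PV neurons (-0.44, SE 0.0867). Gnaz, the known partner of Rgs17, was higher in PYC neurons (0.43, SE 0.131) and not called in SST neurons. Of 5 tested subunits of the q/11 and 12/13 classes, Gnaq was higher in PYC neurons (0.34, SE 0.121). Gna14, below the median abundance and named after its values were seen, was higher in SST (5.04, SE 0.869) and lower in VIP neurons (-5.05, SE 1.24). Medians over the i/o/z list were -0.44 in PV, 0.21 in VIP, 0.19 in PYC and 0.05 in SST neurons.

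The genes most like each RGS gene were found by Pearson correlation of log2 CPM over all 83 libraries among 8996 genes, which share library depth and the 4 types. The nearest to Rgs16 were Grpr (r = 0.78), Htr3a (0.75) and Npy2r (0.72), and to Rgs12 Cxcl14 (0.68), Npy2r (0.68) and Egfr (0.66). Rgs10 was nearest to Vip (0.63), Crh (0.63) and Tac2 (0.62). Rgs8 was nearest to Nrxn2 (0.71), Fxyd6 (0.71) and Vav2 (0.70). Rgs17 was nearest to Ptprt (0.63), Sst (0.59) and Grik3 (0.59), and Rgs4 to Camk4, Nrgn and Rasgrp1 (0.64, 0.64 and 0.63). Rgs14 was nearest to Synpo (0.66), Ptprk (0.62) and Enc1 (0.61). Rgs2 and Rgs7, without a called type difference, had no gene above 0.44 (Alas1) and 0.47 (Ubac2).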

How the data were processed

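The deposited table holds raw counts per Ensembl gene for 83 libraries, which the authors deposited without normalization. Libraries were built with a strand-marking kit for total RNA at very low input, per the labels' protocols. The submitters' processing notes name HISAT2 and GRCm38. The counting tool, its annotation and its strand option are not stated there or in the labels. Symbols were found for 48435 of the 48795 genes in GENCODE M21 and a table of gene names, and 360 had none.

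Groups came from the labels. Library numbers follow accession order and pair nothing. The series' design gives 9 young and 12 old mice, so libraries share mice, and nothing says which. The p-values measure the spread between these pools. The 9 genes, the pathway and marker lists and the tests were chosen with earlier results of these data known. All 9 genes are described in full. For pathway lists, up to 3 called genes a type of at least median abundance were eligible to be named.

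edgeR 4.0.16 in R 4.3.3 was run on the counts as deposited, with TMM factors, filterByExpr at a minimum count of 10, robust quasi-likelihood F-tests, 2-sided, and Benjamini-Hochberg adjustment. Age was tested on the libraries of 1 type. Type, mean age and interaction used 1 fit of all 8 groups. The SE is the fold change divided by the root of F. The labels name no molecular identifiers, and the true error can exceed the counting error. On simulated data the fit of all groups made more false calls than its adjusted p threshold of 0.05 allows, mainly among low genes. A fit without the genes under the median abundance is therefore given beside it. Other settings were RLE factors, no filter, a filter on CPM, DESeq2 1.42.0, limma-voom (limma 3.58.1) with quality weights, the F number in the titles, the library total, each age alone, 6 libraries left out, 2 VIP pools rich in SST markers left out (over 1000 CPM) and each library left out in turn. Likeness used log2 CPM with a prior count of 2.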

Additional observations from a re-analysis of the deposited data

Results flagged for a closer look

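Each young group of 8 or 9 libraries was checked for a library far from the others (Dixon's test at 95%), for each of the 9 genes. Of 36 groups of values, 9 held such a library. The rate of about 1 in 20 expected by chance holds for normally distributed values. It cannot be applied to CPM, which are bounded at 0, with 7 of 9 young PYC libraries at 0 for Rgs16. The flags are therefore a description. None of these libraries was among the 6 with few mitochondrial counts.

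The R4 genes gave 3 of these. Rgs4 in young SST library 9 was at 258 CPM, with the next library at 143 CPM. Rgs16 in young PYC library 4 was at 4.84 CPM (next 1.76 CPM), and in young PV library 7 at 6.19 CPM (next 2.47 CPM). Rgs7 in young PV library 4 stood at 127 CPM, with the next at 66.8 CPM.

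The R12 genes gave 5. Rgs10 was at 12.9 CPM in young PV library 7 (next 5.25 CPM), the library that was also highest for Rgs16, and at 46.9 CPM in young SST library 5 (next 22.4 CPM). Rgs12 in young VIP library 5 was at 274 CPM, with the next at 173 CPM. Rgs14 in young PYC library 5 was at 51.4 CPM (next 22.8 CPM) and in young PV library 1 at 7.47 CPM (next 3.46 CPM). Each of the 9 was the highest library of its group, and old groups of 12 were too large for this check.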

How the results depend on the processing

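No paired analysis was possible because the library numbers follow accession order and the labels tie no library to a mouse. The number of calls moved by over 1.5 times in 3 cases. In young libraries alone, 12 of 54 pair tests were called and 8 of 36 tests of a type against the others, against 21 and 14 in all libraries. Calls over all genes fell too in every comparison of types. For PV neurons against the others they fell to 1200 of 15478 genes from 3273 of 19208. With no filter on low counts, 1 age test was called (Rgs7 in SST neurons), against 0. Leaving out each library in turn gave 0 age calls each time, from 0 to 0. Against the others, calls of Rgs4 in PYC, Rgs17 in SST, Rgs8 in PV and Rgs8, Rgs10 and Rgs12 in VIP held under every setting. The call of Rgs16 in VIP neurons was made under every setting that tested it. It remains a description, since the gene was kept through its VIP counts and the fit from the median abundance upward did not hold it. The other 7 of the 14 calls were lost under at least 1 setting. Of the 21 pair calls, 11 were made under every setting that tested them. Some uncalled log2 differences between neighbouring types changed sign. With RLE factors, Rgs17 (PV minus VIP) was -0.00231, Rgs14 (PYC minus VIP) -0.00968 and Rgs7 (PYC minus VIP) -0.00577. DESeq2 gave -0.00228, -0.00958 and -0.00569 for the same 3. With limma-voom, Rgs10 (PYC minus PV) was -0.57, Rgs14 (PYC minus VIP) -0.13 and Rgs2 (PYC minus VIP) -0.0382. The F number gave -0.75 for Rgs10 (PYC minus PV) and 0.13 for Rgs12 (PYC minus SST). Old libraries alone gave -0.11 for Rgs17 (PV minus VIP), -1.04 for Rgs10 (PYC minus PV), 0.83 for Rgs12 (PYC minus SST), -0.0375 for Rgs7 (PYC minus VIP) and 0.55 for Rgs7 (SST minus VIP). Young libraries alone gave -0.63 for Rgs16 (PYC minus PV), -0.27 for Rgs14 (PYC minus VIP) and -0.42 for Rgs2 (PYC minus VIP). Without the 6 libraries, Rgs17 (PV minus VIP) was -0.10, Rgs12 (PYC minus SST) 0.017, Rgs14 (PYC minus VIP) -0.0693, Rgs2 -0.16 and Rgs7 -0.0849 (both PYC minus VIP). Without old VIP libraries 9 and 11, Rgs17 (PV minus VIP) was -0.0282, Rgs14 (PYC minus VIP) -0.0478 and Rgs7 (PYC minus VIP) -0.0175. The cause was not tested, other than that fits of 1 age hold fewer libraries. Rgs16 had 8 counts over all old PV pools, so its level there is imprecise.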

Other observations

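Effectors of G protein signalling differed between neuron types. Of all genes, 13.3% were called in PYC, 17.0% in PV, 8.01% in SST and 12.0% in VIP neurons against the other types. Of 3 tested GIRK potassium channel subunits, Kcnj3 (log2 fold change 1.25, SE 0.141) and Kcnj9 (0.66, SE 0.132) were higher in PV neurons than in the other types, and Kcnj6 was higher in PYC neurons (0.79, SE 0.175). All 3 were lower in SST neurons, Kcnj6 by -0.79 (SE 0.192), Kcnj9 by -0.70 (SE 0.14) and Kcnj3 by -0.59 (SE 0.153), and none was called in VIP neurons, where Rgs8 was highest. Of 9 adenylyl cyclases, the enzymes that make cyclic AMP, Adcy2 was lower in PV neurons (-1.93, SE 0.139) and higher in SST (1.06, SE 0.112) and VIP neurons (0.60, SE 0.114). Adcy9 was higher in PYC (0.80, SE 0.122) and lower in SST neurons (-0.61, SE 0.132). Of 8 tested G gamma subunits, Gng2 was lower in PV (-1.46, SE 0.181) and higher in VIP (1.04, SE 0.152) and SST neurons (0.76, SE 0.153), and Gng4 was higher in VIP (1.75, SE 0.368) and lower in PV neurons (-1.74, SE 0.46). None of the 4 phospholipase C beta genes was called in any type.

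Immediate early genes, which neurons switch on when active, were higher in PYC neurons for 7 of 13 tested genes, with a median log2 fold change of 1.03 against 0.01 over all genes. Egr3 (1.72, SE 0.221) and Egr1 (1.57, SE 0.16) were among them. Of all genes 13.3% were called in PYC neurons and 17.0% in PV neurons, in both directions. In PV neurons 4 of the 13 were lower and Dusp1 was higher (1.49, SE 0.503). Averaged over the types, Egr1 was the 1 gene of the 13 called for age and was lower in old mice (-0.64, SE 0.148, edgeR adjusted p = 0.00701). That call does not hold in every setting, since for mean age limma-voom and the fit from the median abundance upward called 0 genes.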
